A study of Mus musculus with 10 samples.

Results

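Fibroblasts marked by Stmn2 and Rspo3 were examined in single-cell RNA data from embryonic mouse back skin. Cells were first kept when they had over 1000 and under 6000 detected genes and under 10% mitochondrial UMIs (unique molecular identifiers, each standing for 1 captured RNA molecule). A kept cell was called fibroblast-gated when Col1a1 and Col3a1 together reached 30 UMIs, Krt5 and Krt14 together stayed under 10, and Sox2, Pecam1 and Ptprc were all at 0. A fibroblast-gated cell was a member when at least 3 of the 6 markers Stmn2, Cntn4, Col8a1, Rspo3, Ism1 and Mmp11 were detected. It also had to show fewer than 3 of the 6 upper dermal genes Crabp1, Axin2, Lef1, Rspo1, Ptgfr and Inhbb, and fewer than 2 of the 4 fascia genes Mfap5, Pi16, Dpp4 and Osr1. There were 3052 members, which were 5.50% of 55482 kept cells and 9.98% of 30590 fibroblast-gated cells. Of these, 2447 came from E15.5, 359 from E16.5 and 246 from E17.5.

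The libraries were made from dissociated back skin of embryos on a mixed C57Bl/6J and CD-1 background. At E15.5, control replicates 2 and 3 were set against MOF cKO replicates 5 and 6, and at E16.5 control replicates 1 and 2 against MOF cKO replicates 1 and 2. The E17.5 comparison rested on a single library from each of control and QPC cKO skin. MOF cKO embryos carried 2 floxed alleles of Mof (gene symbol Kat8, a histone acetyltransferase) and QPC cKO embryos 2 floxed alleles of Uqcrq (which encodes QPC, part of complex III of the respiratory chain), each with the K14Cre transgene. The controls were wild-type or heterozygous littermates. The Krt14 promoter drives Cre in epithelium, so fibroblasts were not the cells in which either gene was meant to be deleted, and the study, from staining and cell clustering, describes E15.5 MOF cKO replicate 6 as mosaic and replicate 5 as homogeneous. In epithelial cells, Kat8 stood at 13.2 and 14.1 counts per 1000000 UMIs (CPM) in E15.5 controls against 13.3 and 10.3 in MOF cKO, and at E16.5 at 20.2 and 15 against 8.66 and 3.06. Epithelial Uqcrq at E17.5 was 37.3 CPM with QPC deleted against 133 CPM for its control. The E15.5 groups of Kat8 overlapped and the E16.5 groups did not. The E16.5 values rest on only 30 and 36 epithelial cells in MOF cKO, against 189 and 489 in the controls. They are too few to measure a gene at this level closely. At E15.5 Kat8 RNA does not set MOF cKO replicate 5 apart from the controls, and the libraries are called by their labels. Whether the deleted part of Kat8 holds the 3' end that was counted is not given in the sources used here. In members, Kat8 stood at 8.49 to 9.30 CPM in E15.5 controls and 8.0 to 8.14 in MOF cKO, and it was not called changed (log2 fold change -0.14 ± 0.21 SE, adjusted p = 0.812, edgeR quasi-likelihood test with Benjamini-Hochberg adjustment).

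Fibroblasts of embryonic skin lay down the collagen matrix of the dermis and signal to the epidermis above. Those near the epidermis receive Wnt signals and support hair follicle formation, and those deeper down build the reticular dermis, the fascia and the adipocyte lineage. Stmn2 encodes a regulator of microtubules best known from neurons. Rspo3 encodes an R-spondin, a secreted protein that strengthens Wnt signalling at the receptor. Cntn4 encodes a contactin adhesion protein, Col8a1 a short-chain collagen, Ism1 the secreted protein isthmin and Mmp11 a matrix metalloproteinase.

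Depth ranged from 13609345 to 203392303 UMIs per library, and the UMIs summed over members from 584070 in E16.5 control replicate 1 to 7370010 in E15.5 MOF cKO replicate 5. The E16.5 libraries were made with an earlier 10x chemistry than those of the other stages and were counted over 27998 genes in place of 32285, so at E16.5 stage, chemistry and gene list cannot be told apart. The 2 E17.5 libraries shared 1702 cell barcodes, 20.7% of those of the smaller library, but no E17.5 member carried one. In every other pair of libraries under 1% were shared. Members of E16.5 control replicate 2 had Xist at 0 and Y-linked genes at 124 CPM, while the other E15.5 and E16.5 libraries had Xist at 897 to 1276 CPM. Both E17.5 libraries had Xist at 0. Replicates of a group differed by more than sampling noise (chi-square per degree of freedom 2.85 to 8.89), as separate preparations of 1 sample would too, so none was taken for a library deposited in duplicate. The study describes pairs of control and MOF cKO samples with littermate controls at both E15.5 and E16.5. The sources used here do not tie replicate numbers to litters or say whether an E16.5 library came from a single embryo, so p-values measure only the spread between these samples.

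The first question was how frequent these cells were. Members made up 11.4% (95% Wilson interval 10.4 to 12.4) and 11.7% (10.8 to 12.7) of fibroblast-gated cells in the E15.5 controls. In E15.5 MOF cKO they made up 10.9% (10.1 to 11.6) and 9.99% (9.30 to 10.7). The 2 groups did not overlap, yet the difference of -1.11 percentage points had an exact permutation p of 0.333, two-sided, the smallest that 2 against 2 libraries allow. At E16.5 the controls held 9.02% (7.03 to 11.5) and 9.91% (8.45 to 11.6), and MOF cKO replicates 1 and 2 held 14.8% (11.9 to 18.2) and 9.24% (7.59 to 11.2). There MOF cKO replicate 1 lay above both controls and replicate 2 between them (difference 2.56 points, exact permutation p = 0.667). The difference averaged over E15.5 and E16.5 was 0.72 points (exact permutation p = 0.944, smallest possible 0.0556), and after Benjamini-Hochberg adjustment over these 3 comparisons each exact p was 0.944. At E17.5 the share was 3.95% (3.1 to 5.01) in the control and 6.24% (5.42 to 7.17) in QPC cKO, a pair of libraries without replicates. Intervals cover counting error only.

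**Figure D1:**
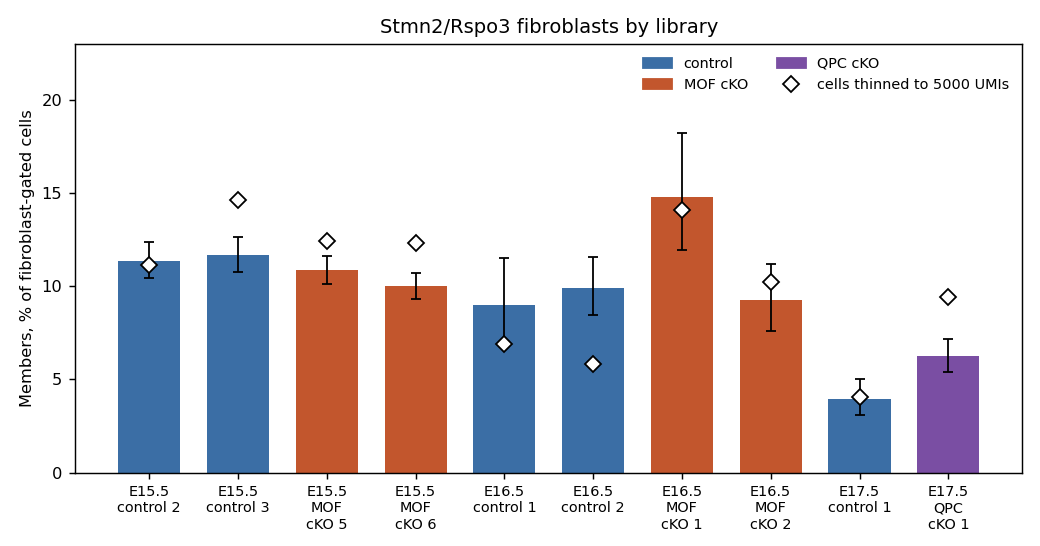
Members as a percentage of fibroblast-gated cells in each of 10 libraries (bars, with 95% Wilson intervals) and the same share after every cell was thinned to 5000 UMIs (diamonds). The bars lie between 9.02 and 14.8% at E15.5 and E16.5 and at 3.95 and 6.24% at E17.5.

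The share moved when cells were thinned and when the gate was changed. After thinning each cell to 5000 UMIs the share was 11.1 and 14.7% in E15.5 controls, 12.4 and 12.3% in E15.5 MOF cKO, 6.91 and 5.81% in E16.5 controls, 14.1 and 10.2% in E16.5 MOF cKO, 4.07% in the E17.5 control and 9.44% in QPC cKO. Thinning changed which cells met the other limits too, with 1622 fibroblast-gated cells in the E17.5 control before and 2627 after, and the cause of the moves was not tested. As a share of all kept cells, the difference turned to 1.25 points at E15.5 and was 3.08 points at E16.5 (exact permutation p = 0.333 at each stage), with every MOF cKO library above both controls of its stage. Over both stages it was then 2.17 points (exact permutation p = 0.0556, the smallest possible, not adjusted). In E15.5 controls 2462 and 2703 of 8396 and 9117 kept cells were epithelial, and in MOF cKO 923 and 1497 of 10179 and 10653. At E16.5 the counts were 189 and 489 of 1140 and 2447 against 30 and 36 of 716 and 1363. The part of these epithelial cells in the difference over kept cells was not tested. When Stmn2 and Rspo3 were both required in place of 3 markers, the E16.5 difference turned to -0.99 points, and without MOF cKO replicate 1 to -0.23 points. Median depth was lower in members than in the other fibroblast-gated cells in 9 of 10 libraries, for example 9369.5 against 11431.0 UMIs in E15.5 control replicate 2, and in E16.5 control replicate 2 it was 9751.0 against 9632.5.

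Many members sat close to the edge of the rule. Exactly 3 markers were detected in 37.8 to 71.9% of the members of a library. Cells with 3 markers carried on average 7.85 to 15.2 marker UMIs, and cells just outside, with 2 markers, 4.48 to 8.12. Stmn2 and Rspo3 were both detected in 50 to 74.0% of members, and in 0 to 5.26% neither was. Epithelial cells, which should lack them, had at least 1 Stmn2 UMI in 0.975 to 5.32% of cells. At least 1 Rspo3 UMI was found in 0.894 to 10.0% of them. Their median depth was 12043.0 to 25522.5 UMIs against 8779.0 to 15773.5 in members. The E16.5 MOF cKO libraries held only 30 and 36 epithelial cells, so few cells can set the ends of these ranges.

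The members were chosen by the detected UMIs of these genes, so the levels are given as a description. For comparison, upper gated cells were fibroblast-gated cells with at least 3 upper dermal genes and under 3 markers, and fascia gated cells had at least 2 fascia genes, under 3 upper dermal genes and under 3 markers. The other fibroblast-gated cells were all those that were not members. Stmn2 had a median over the 10 libraries of 447 CPM in members, 40.8 in upper gated and 5.06 in fascia gated cells, and its member values ran from 201 in E16.5 MOF cKO replicate 1 to 693 in E15.5 MOF cKO replicate 6. Rspo3 had medians of 259, 52.5 and 36.2 CPM and was the steadiest of the 6, from 226 to 363 across libraries. Cntn4 stood at 55.9, 7.64 and 2.32 CPM. Col8a1 stood at 129, 12.8 and 11.6, with its lowest member values at E17.5, 38.9 in the control and 39.1 in QPC cKO. Ism1 stood at 69.2, 5.11 and 0.62 and Mmp11 at 73.0, 16.1 and 12.2.

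**Figure D2:**
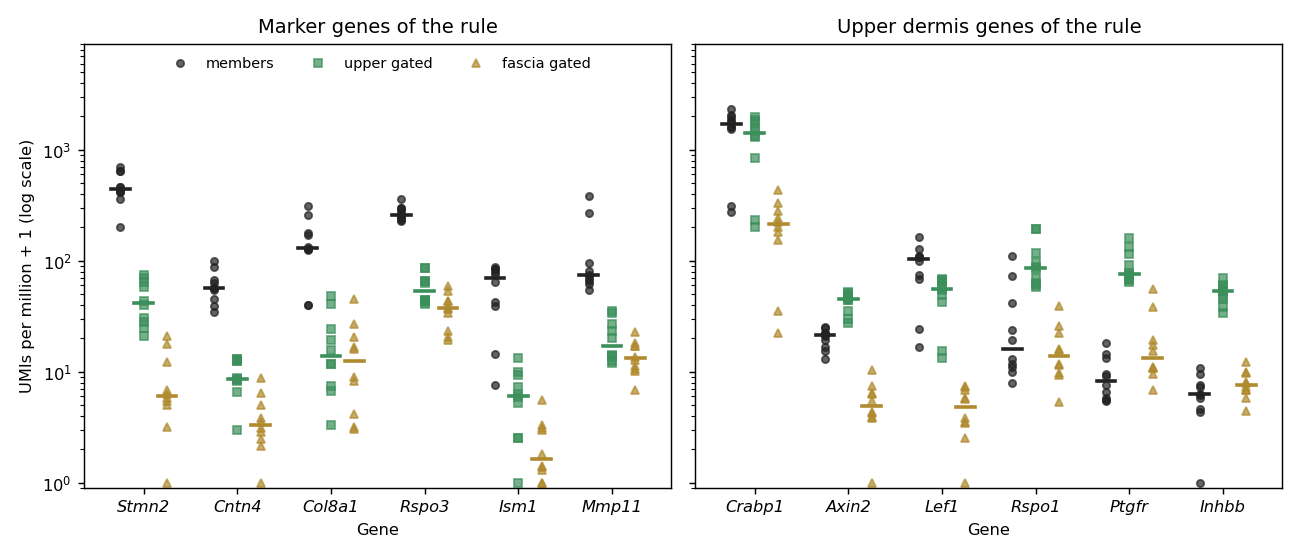
Levels of the 6 markers (left) and the 6 upper dermal genes (right) in members, upper gated and fascia gated cells, in CPM plus 1 on a log scale, with 1 point per library and a bar at the median. Crabp1 and Lef1 do not lie lower in members than in upper gated cells, with medians of 1693 against 1413 and 103 against 54.3.

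The upper dermal genes were not uniformly low in members. Crabp1, which encodes a retinoic acid binding protein, had a median of 1693 CPM in members, 1413 in upper gated and 212 in fascia gated cells. Lef1, a transcription factor of the Wnt pathway, had medians of 103, 54.3 and 3.79 CPM. The other 4 were lower in members than in upper gated cells in all 10 libraries, with median log2 ratios of -0.98 for Axin2, -2.21 for Rspo1, -3.46 for Ptgfr (a prostaglandin receptor) and -3.07 for Inhbb (an activin subunit). At least 3 markers were present in 9735 fibroblast-gated cells, of which 6565 were left out for upper dermal genes and 118 for fascia genes. Against the cells left out for upper dermal genes, the median log2 ratios of genes the rule did not use were 0.13 for Mgst3, 0.09 for Nav2, -0.09 for Efna5, 0.09 for Mef2c, -0.02 for Fgfr1 and 0.39 for Nrtn. Lower in members were Agtr2 (-0.77), Ogn (-0.73), Thbs2 (-0.58), Nrk (-0.58) and Loxl1 (-0.52). The members are called by the rule, and no cell type name is given to them.

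Genes that the rule did not use also differed between members and the other fibroblast-gated cells of the same library. This contrast follows from how the cells were chosen, so no test was made. Of 12312 genes past 1 CPM, 7.54% were higher and 8.14% lower in members in all 10 libraries, and the median log2 ratio was 0.03. Mgst3, a glutathione transferase family member, led with a median log2 ratio of 1.4 (219 against 82.9 CPM), followed by Nav2, a neuron navigator, at 1.29. Among Wnt feedback genes Nkd1 stood at 1.05 and Nkd2 at 0.77. Ephrin ligands Efna5 and Efnb2 stood at 1.07 and 0.92, the neurotrophic ligand Nrtn at 0.98 and the growth factor receptor Fgfr1 at 0.96. Transcription factors among the 20 genes of largest ratio were Mef2c (1.02), Trps1 (0.97), Runx1 (0.96), Cux1 (0.91) and Runx3 (0.88). Against the cells left out for upper dermal genes, the median log2 ratio was 0.04 for Nkd1, 0.04 for Nkd2 and -0.004 for Efnb2. It was 0.09 for Trps1, -0.06 for Runx1, 0.04 for Cux1 and -0.005 for Runx3. In these genes members lay near the cells left out.

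Matrix genes and other genes high in fascia gated cells were low in members, against upper gated cells as well. Agtr2, an angiotensin receptor, had a median log2 ratio of -4.02 (15.2 CPM in members, 233 in upper gated and 703 in fascia gated cells). Clec3b stood at -3.67, and Ogn and Aspn, both small leucine-rich proteoglycans, at -3.57 and -3.14. Ly6a stood at -3.15, Thbs2 at -3.03 and the elastin crosslinking enzyme Loxl1 at -2.98. In upper gated cells Ogn had 94.2 CPM against 8.10 in members, Aspn 125 against 20.9, Thbs2 126 against 14.0 and Loxl1 98.8 against 11.1. Of 27 fibrillar collagen and assembly genes, 18 were lower in all 10 libraries and 0 higher (median -0.66), and of 23 elastic fibre and matricellular genes 12 were lower and 2 higher (-0.62). Inflammatory genes were lower for 14 of 25 (-1.30), matrix proteases and inhibitors for 10 of 19 (-0.64) and adipocyte progenitor genes for 4 of 6 (-2.31). S phase genes ran the other way, with 7 of 32 higher and 0 lower (0.24), and of 43 Wnt pathway genes 9 were higher and 7 lower (0.07).

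Markers of other cell types were checked in the members. All 10 fibroblast markers were detected in every library, with a summed level of 8686 to 14250 CPM. Endothelial markers summed to 10.99 to 35.95 CPM, immune markers to 10.27 to 120.2, melanocyte markers to 3.42 to 28.2, Schwann markers to 2.61 to 7.77 and skeletal muscle markers to 2.28 to 53.2. The endothelial list includes Pecam1 and the immune list Ptprc, both of which the gate keeps at 0. Pericyte markers summed to 24.0 to 153 CPM, mast cell markers to 12.9 to 168, tendon markers to 5.99 to 52.0 and adipocyte progenitor markers to 362 to 1471. Cartilage and bone markers summed to 29.65 to 120.2 CPM and lay above the other fibroblast-gated cells in all 10 libraries. Keratinocyte markers, a list that includes Krt5 and Krt14, which the gate limits, summed to 60.8 to 695 CPM. Dermal condensate markers, a list that includes Sox2, which the gate keeps at 0, summed to 132 to 1723 CPM in members and lay above the other fibroblast-gated cells in all 10 libraries, and 3 of the 6 genes compared were higher in every library. Neuron markers summed to 38.9 to 141 CPM with up to 8 of 10 at 0, although Stmn2 is a neuronal gene. Erythroid markers reached 33630 CPM at E15.5 and were 2.91 and 4.31 CPM at E17.5. Their part in the results was not tested. In sums over cells, a change in RNA per cell and a change in which cells were gated cannot be told apart.

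At E15.5 few genes were called changed in members of skin labelled MOF cKO. Of 11696 genes tested, 7 passed an adjusted p of 0.05 (0.0598%), 4 higher (0.0342%) and 3 lower (0.0256%), and 1532 had an unadjusted p under 0.05. Itih5, a heavy chain of the hyaluronan-binding inter-alpha-trypsin inhibitor family, stood at 455 and 376 CPM in the controls against 194 and 242 in MOF cKO. It fell by 0.94 ± 0.11 (log2, SE) with an adjusted p of 0.0487. Idi1, an isomerase of the cholesterol pathway, stood at 138 and 118 CPM against 67.0 and 77.0 and fell by 0.84 ± 0.10 (adjusted p = 0.0487). For both genes the 2 groups lay apart. The other 5 calls fell outside the rule for named genes and were picked out after their values were seen. Ifi204 fell, from 7.61 and 10.7 to 0.81 and 0.56 CPM. Nrk rose from 11.6 and 9.99 to 24.6 and 32.0 CPM. Osr1 is a gene of the rule, so its values of 23.5 and 28.8 against 56.2 and 59.1 CPM are a description and its call is not read as a result. Myog and Actc1 also rose, both muscle genes, and skeletal muscle markers summed to 3.17 and 3.66 CPM in the controls against 26.3 and 53.2 in MOF cKO replicates 5 and 6, and in the other fibroblast-gated cells to 9.92 and 21.8 against 28.3 and 32.1. Their part in these 2 calls was not tested.

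The number of calls rested on single libraries and on the tool. Leaving out 1 library gave 26 to 223 calls, with 223 without MOF cKO replicate 6 and 85 without control replicate 3. DESeq2 called 57, library size scaling 37 and the fit without a filter on low counts 84. The adjusted p of all 7 calls was 0.0487, and no gene was called by edgeR with at least 4 markers (1145 at an unadjusted p under 0.05) or with the gate on thinned cells (1568). The strongest remaining differences did not pass the threshold. Fdps, the enzyme after Idi1 in the cholesterol pathway, had 162 and 131 CPM against 75.6 and 87.5 (log2 -0.85 ± 0.11, adjusted p = 0.058). Insig1, which restrains that pathway, had 80.8 and 82.6 against 42.1 and 53.5 (-0.78 ± 0.11, adjusted p = 0.0593). On the other side were Igf2 at 86.7 and 93.9 against 147 and 138 CPM (0.65 ± 0.09, adjusted p = 0.0596) and Col1a2 at 3572 and 3837 against 5286 and 5743 (0.57 ± 0.08, adjusted p = 0.064). Mast4 (0.66), Meg3 (0.52) and H19 (0.54) had positive and Dbi (-0.53) negative values of like size.

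Lists without any call at E15.5 nevertheless lay to 1 side. Of 62 OXPHOS subunits tested, 61 had negative log2 fold changes (median -0.21, against 0.00 over all genes), and Uqcrq itself stood at -0.36. All 22 Hox genes tested were positive (0.33), as were 14 of 15 interferon response genes (0.78) and 23 of 25 fibrillar collagen and assembly genes (0.22), a list that includes the gate genes Col1a1 and Col3a1. The interferon list summed to 1277 and 1345 CPM in the controls against 2186 in MOF cKO replicate 5 and 1432 in replicate 6. All 7 keratinocyte genes were negative (-1.09), among them the gate genes Krt5 and Krt14, with a summed level of 168 to 251 CPM in the controls and 60.8 to 105 in MOF cKO. Signs over a list of genes from the same libraries are not independent.

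At E16.5 more genes were called changed in members of MOF cKO skin than at E15.5. Of 7346 genes tested, 1617 had an unadjusted p under 0.05, against 1532 of 11696 at E15.5. After adjustment 382 were called (5.2%), 265 higher (3.61%) and 117 lower (1.59%). This balance moved with the scaling, to 221 higher and 218 lower with library size scaling, which put the median over all genes at -0.14, and with the gate on thinned cells to 233 and 172. Without the filter on low counts it was 591 and 391. A gene at 0 UMIs in both controls could enter the test through MOF cKO alone and could not fall. Called higher were 14 of 19 inflammatory, 14 of 16 interferon response, 9 of 24 fibrillar collagen and 11 of 22 immediate early genes, and called lower were 13 of 32 S phase and 4 of 24 Wnt pathway genes. The lists were chosen with earlier results of these data known, so counts over them are a description. The calls include 7 genes of the rule (Mmp11, Col8a1, Ism1, Lef1, Rspo1, Col1a1 and Krt5), which are not read as results. The number of calls rested on single libraries. It was 47 without MOF cKO replicate 1 and 82 without MOF cKO replicate 2. Leaving out control replicate 1 gave 640. Leaving out control replicate 2, the library with Y-linked RNA, gave 310, of which 200 were shared.

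Inflammatory genes rose for 14 of 19 tested and fell for 0 (median log2 2.74, against 0.01 over all genes). Of 31 such genes listed, 12 were at 0 UMIs in members of each control, against 5 and 4 in MOF cKO replicates 1 and 2. Those at 0 in both controls could not fall. Cxcl10, a T cell attracting chemokine, had 0 UMIs in both control libraries and 175 and 53 CPM in MOF cKO replicates 1 and 2, at least 69.4-fold higher when the control is set to 3 UMIs over the group (adjusted p = 0.0167). Cxcl5, a neutrophil attracting chemokine, also went from 0 and 0 to 144 and 44.0 CPM, at least 57.1-fold (adjusted p = 0.0174). Cxcl2, of the same family, stood at 17.1 and 4.56 CPM in the controls against 329 and 268 in MOF cKO, a log2 fold change of 5.21 ± 0.41 (adjusted p = 0.00296). In each of these genes both cKO libraries lay above both controls, and replicate 1 above replicate 2. Ccl2 rose by 4.47, Nfkbia, the inhibitor that NF-kB induces, by 2.52, Socs3 by 2.74 and Cxcl12 by 2.74.

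Interferon response genes rose for 14 of 16 tested and fell for 0 (median 3.15). Of 27 listed, 11 and 8 were at 0 UMIs in members of control replicates 1 and 2, against 1 and 2 in MOF cKO. Those at 0 in both controls could not fall. Isg15, a ubiquitin-like modifier, stood at 0 and 0.76 CPM in the controls against 180 and 68.8 in MOF cKO (adjusted p = 0.00671). The controls held 1 UMI in all, which gives a ratio of 229 with an exact 95% counting interval of 40.6 to 9081. Ifitm3, an antiviral membrane protein, stood at 110 and 124 against 1342 and 841 CPM (3.38 ± 0.30, adjusted p = 0.0034). Bst2 stood at 8.56 and 8.36 against 174 and 144 CPM (4.36 ± 0.29, adjusted p = 0.0022). The groups did not overlap in any of the 3. The MHC light chain B2m rose by 1.86 and H2-D1 by 3.0. Irf7, with 1 control UMI, rose by a ratio of 57.5 (9.86 to 2315). Iigp1, an interferon-induced GTPase, and Serpina3n, an acute phase protease inhibitor, had 0 UMIs in both controls and reached 83.7 and 19.2 CPM and 193 and 25.9 CPM in MOF cKO. Ifi27l2a and Lgals3bp, with 2 control UMIs each, were also among the 10 largest rises, at ratios of 67.3 (18.2 to 562) and 48.9 (13.1 to 410). Immune markers summed to 10.3 and 66.9 CPM in the controls against 120 and 107 in MOF cKO, and Lyz2 alone among the 3 tested was called, at 3.42 and 9.12 against 71.9 and 48.5 CPM. Whether RNA of immune cells added to the counts was not tested.

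Promoters of 3 of these genes show the kind of sequence that the factors of the 2 responses are known to bind. The interferon-stimulated response element was searched as GAAANNGAAA and the NF-kB element as GGGANNTTCC, on both strands, in 250 bases before and 50 after the start of 27025 genes (RefSeq, GRCm38.p6). Capitals mark the matches to either element in the 250 bases before the start. Isg15 holds 3 overlapping interferon element matches at chr4:156200819-156201068 (minus strand), Cxcl10 1 interferon element match and then 1 NF-kB match at chr5:92348890-92349139 (minus strand), and Cxcl2 an NF-kB match read on both strands at chr5:90903649-90903898 (plus strand).
Isg15: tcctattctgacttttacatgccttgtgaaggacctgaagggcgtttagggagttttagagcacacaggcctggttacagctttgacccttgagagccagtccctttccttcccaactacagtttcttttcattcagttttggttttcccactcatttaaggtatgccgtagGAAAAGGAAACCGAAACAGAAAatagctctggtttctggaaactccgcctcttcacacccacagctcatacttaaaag
Cxcl10: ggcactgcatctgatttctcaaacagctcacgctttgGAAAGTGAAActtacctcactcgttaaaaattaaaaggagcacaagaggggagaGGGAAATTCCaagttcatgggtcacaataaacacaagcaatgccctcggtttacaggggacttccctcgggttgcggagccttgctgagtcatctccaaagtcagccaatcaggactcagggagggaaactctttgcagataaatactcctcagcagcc
Cxcl2: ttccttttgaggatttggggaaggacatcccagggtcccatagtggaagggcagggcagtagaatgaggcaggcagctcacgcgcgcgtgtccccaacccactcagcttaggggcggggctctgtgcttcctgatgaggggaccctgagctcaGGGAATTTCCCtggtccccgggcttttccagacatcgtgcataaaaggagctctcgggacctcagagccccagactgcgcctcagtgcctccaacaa
The first element was found in 3.49% of all promoters, in 23 of 185 promoters of genes called higher (12.4%) and in 2 of 94 of genes called lower (2.13%). The second was found in 1.43% of all, in 12 of 185 (6.49%) and in 0 of 94. Of the interferon response genes called higher, 6 of 13 with a promoter held the first element. Of the inflammatory genes called higher, 5 of 11 held the second. A match is a description of the letters and not a bound site, and the lists overlap with the genes called. The shares of all promoters include genes that were not tested at E16.5 and could not be called. The share among tested genes was not taken.

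**Figure D3:**
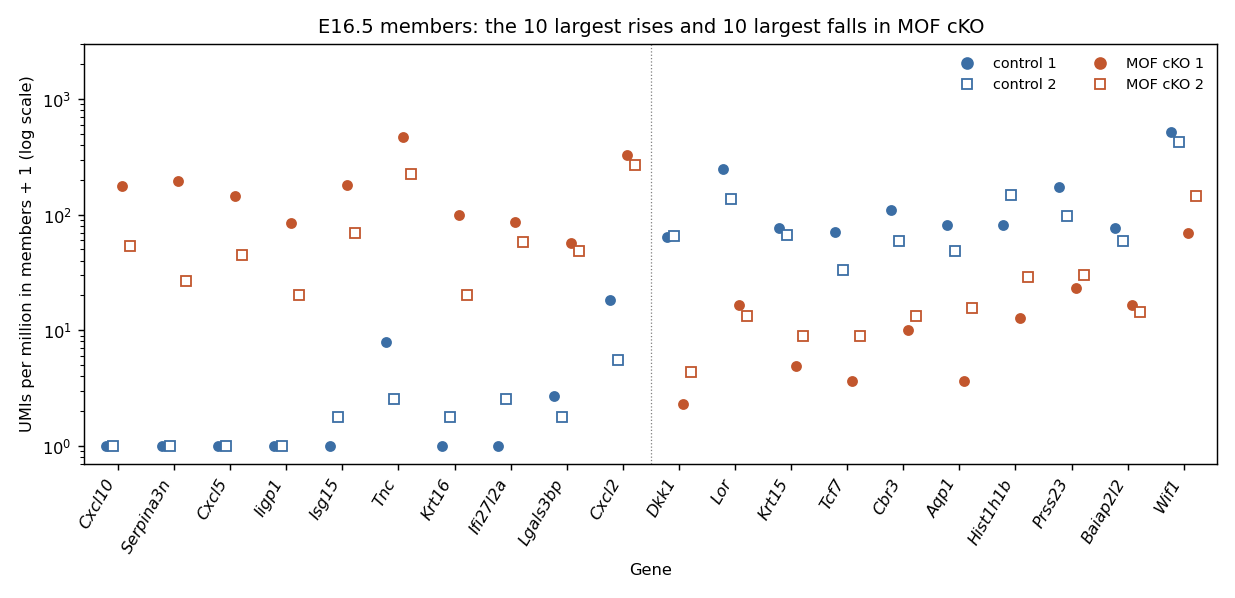
Levels in E16.5 members of the 10 genes with the largest rise (left of the dotted line) and the 10 with the largest fall (right) in MOF cKO, in CPM plus 1 on a log scale, with 1 point per library. Only genes whose 2 control libraries lay apart from the 2 MOF cKO libraries could be among these 20, as for Cxcl2 at 17.1 and 4.56 against 329 and 268.

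Genes of the extracellular matrix were among those called higher. Tnc encodes tenascin C, a matrix protein of wounds and developing tissue. It stood at 6.85 and 1.52 CPM in the controls against 469 and 226 in MOF cKO (6.83 ± 0.60, adjusted p = 0.00336). Col12a1, a fibril-associated collagen, stood at 20.6 and 12.2 against 390 and 276 CPM (4.6 ± 0.32, adjusted p = 0.0022). For both, each cKO library lay far above either control. Fibrillar collagen and assembly genes rose for 9 of 24, the gate gene Col1a1 included, and fell for 0 (median 0.73), among them Col1a2 at 3092 and 2671 against 5488 and 5985 CPM (1.17 ± 0.17). Elastic fibre and matricellular genes rose for 7 of 18 (1.07), with Fn1 at 1.95, Thbs2 at 2.86 and Mfap4 at 3.50. Matrix proteases and inhibitors rose for 5 of 14 (0.72), with the inhibitor Timp1 at 2.46. The imprinted growth genes Igf2 (1.85 ± 0.25) and H19 (2.36 ± 0.27) rose too. Fibroblast markers themselves rose for 4 of 10.

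Immediate early genes of the AP-1 group rose for 11 of 22 and all 22 were positive (median 1.23). Fos stood at 1301 and 937 CPM in the controls against 1768 and 2186 in MOF cKO, and Jun at 503 and 322 against 1206 and 766. The list summed to 4233 to 7217 CPM in the controls and 11730 to 11810 in MOF cKO. These genes also respond to tissue dissociation, whose part was not tested. Cytosolic ribosomal protein genes were positive for 56 of 57 with 1 call (0.48).

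Of 32 S phase genes tested, 13 were called lower and 0 higher, and all 32 were negative (median -1.13). Rrm2, a subunit of ribonucleotide reductase, stood at 180 and 136 CPM in the controls against 26.1 and 51.9 in MOF cKO (-1.81 ± 0.30, adjusted p = 0.02). Mcm5, of the replicative helicase, stood at 132 and 98.1 against 36.6 and 29.3 CPM (-1.61 ± 0.25, adjusted p = 0.017). Summed S phase RNA was 2752 to 3022 CPM in control members and 987 to 1381 in MOF cKO members, while in the other fibroblast-gated cells it was 1959 to 1967 and 811 to 961. G2/M genes were negative for 37 of 40 and had a median of -0.87, with Ndc80 the only call (-1.33 ± 0.29). Histone gene Hist1h1b fell by 2.38 ± 0.45, and of integrated stress response genes 3 of 15 fell, all of serine or folate metabolism (Phgdh, Psat1 and Mthfd2).

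Wnt pathway genes went both ways, with 2 of 24 called higher and 4 lower (median 0.20). Dkk1, a secreted Wnt inhibitor, stood at 63.4 and 64.6 CPM in the controls against 1.31 and 3.38 in MOF cKO, and fell by 4.5 ± 0.43 (adjusted p = 0.00361). Wif1, another inhibitor, stood at 514 and 427 against 68.0 and 143 CPM and fell by 1.98 ± 0.31 (adjusted p = 0.0172). Tcf7, a transcription factor of the pathway, stood at 70.2 and 31.9 against 2.61 and 7.89 CPM (-2.93 ± 0.56, adjusted p = 0.0287). Dermal condensate markers summed to 461 and 284 CPM in control members against 132 and 178 in MOF cKO members, and their part in these falls was not tested. Nkd1 fell by 1.16, and Wnt5a and Sfrp2 rose by 1.43 and 1.5. In the BMP and TGF-beta list 6 of 24 rose, with Tgfb2 at 3.43 and Tgfbi at 4.69, and Id1 and Id3, targets of BMP signalling, fell by 1.79 and 0.89. The hedgehog receptor and target Ptch1 fell by 1.72, the only call among 9 hedgehog pathway genes. Sox9 rose from 3.42 and 1.52 to 24.8 and 23.7 CPM.

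The remaining large falls were Cbr3 (-2.70 ± 0.38), the water channel Aqp1 (-2.58 ± 0.52), the protease Prss23 (-2.15 ± 0.31), Baiap2l2 (-2.00 ± 0.29) and 2 epidermal genes. Lor, which encodes loricrin of the cornified envelope, stood at 248 and 136 CPM in the controls against 15.7 and 12.4 in MOF cKO, and Krt15 at 75.3 and 65.4 against 3.92 and 7.89. Krt16, a keratin of stressed epidermis, went the other way, from 0 and 0.76 to 99.3 and 19.2 CPM. Keratinocyte markers, with the gate genes Krt5 and Krt14 among them, summed to 676 and 446 CPM in control members and 191 and 151 in MOF cKO members, and in the other fibroblast-gated cells to 444 to 668 and 189 to 240. The part of free epithelial RNA in the values of these 3 genes was not tested. Of the 20 genes in the plot of E16.5 levels, Cxcl10, Cxcl5, Isg15, Tnc, Lgals3bp, Cxcl2, Dkk1, Lor and Krt15 stayed past the threshold in every alternative run, and each of the other 11 lost it in at least 1.

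Among the genes of the rule, which are given without a test, Mmp11 in members stood at 73.6 and 66.9 CPM in E16.5 controls and 379 and 266 in MOF cKO, and Col8a1 at 127 and 125 against 311 and 256. Ism1 went from 87.3 and 38.0 to 6.54 and 13.5 CPM. Stmn2 stood at 358 and 464 against 201 and 431 and Rspo3 at 233 and 268 against 299 and 250, and for both the groups overlapped. Mmp11 was also higher in the other fibroblast-gated cells, at 39.8 and 25.4 against 86.3 and 57.4 CPM, as was Col8a1, at 26.8 and 29.8 against 126 and 65.3. Whether the rule admitted like cells in both groups was not tested. With at least 3 of the 5 markers other than Mmp11 there were 217 calls in place of 382, and with Stmn2 and Rspo3 both required there were 191.

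**Figure D4:**
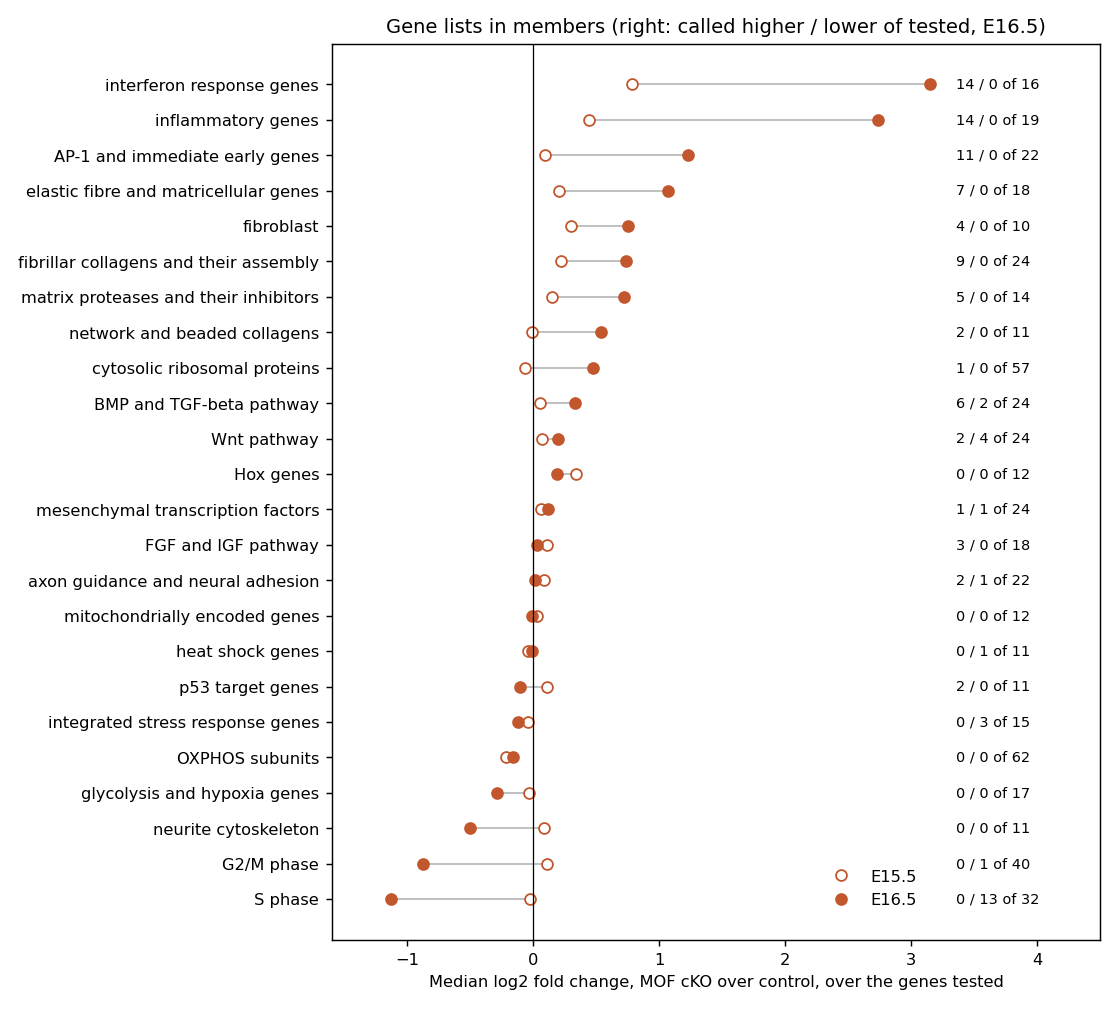
Median log2 fold change in members, MOF cKO over control, over the tested genes of each list with at least 10 genes tested at both stages, at E15.5 (open) and E16.5 (filled), with the genes called higher and lower at E16.5 on the right. Interferon response genes lie at 0.78 and 3.15, inflammatory genes at 0.44 and 2.74 and S phase genes at -0.03 and -1.13. The lists were chosen with earlier results of these data known.

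The change in members differed between the stages. In a single fit of 8 libraries, the interaction of stage and genotype was called for 105 of 11055 genes (0.95%), 65 with a larger value at E16.5 (0.588%) and 40 with a smaller 1 (0.362%). Most calls lay on the other side with library size scaling (66 larger and 94 smaller) and with the gate on thinned cells (83 and 108). Tnc had a mean of 8.04 CPM in the 2 E15.5 controls and 18.5 in the 2 E15.5 MOF cKO libraries, with both cKO libraries above both controls, and its change was larger at E16.5 by 5.67 ± 1.09 (adjusted p = 0.0398). For Col12a1 the E15.5 values were 39.3 and 33.1 against 89.2 and 57.6, and the difference was 3.58 ± 0.46 (adjusted p = 0.0142). Dkk1 stood at 28.1 and 36.3 against 20.9 and 35.1 CPM at E15.5, with overlapping groups, and the difference was -4.36 ± 0.65 (adjusted p = 0.0264). S phase genes differed for 10 of 32, all with a lower value at E16.5, for example Rrm2, which had 92.6 and 91.7 against 86.4 and 97.2 CPM at E15.5 (difference -1.80 ± 0.28, adjusted p = 0.0269). Immediate early genes differed for 5 of 23, inflammatory genes for 5 of 24, elastic fibre and matricellular genes for 5 of 21 and interferon response genes for 2 of 20, all higher. By edgeR no gene was called without E15.5 control replicate 2, control replicate 3 or MOF cKO replicate 6 or without E16.5 MOF cKO replicate 1, with 1203, 1122, 1204 and 1392 genes at an unadjusted p under 0.05, and DESeq2 called 275 with all libraries.

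Whether members changed differently from the other fibroblasts of the same libraries was tested as the interaction of population and genotype, with the library as a block. At E16.5, 91 of 11424 genes were called (0.797%), 78 with a larger value in members (0.683%) and 13 with a smaller 1 (0.114%). Col12a1 is the clearest case, with 20.6 and 12.2 CPM in control members against 253 and 217 in the other fibroblasts, and 390 and 276 in MOF cKO members against 474 and 401. The change in members was larger by 3.54 ± 0.21 (adjusted p = 1.01e-13). Mfap4, a microfibril protein, had 156 and 50.2 CPM in control members and 527 and 478 in the others, and 741 and 1214 against 773 and 1208 in MOF cKO (2.49 ± 0.20, adjusted p = 1.45e-10). In both genes members lay well below the other fibroblasts in control skin and near them in MOF cKO skin. The markers Mmp11 and Col8a1, by which members were chosen, were also higher in the other fibroblasts of MOF cKO skin. Whether the rule admitted like cells in both groups was not tested, so a change in members and a change in which cells were admitted cannot be told apart.

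The MOF cKO change was also larger in members than in the other fibroblasts for Tnc (3.20 ± 0.48) and Tgfbi (3.14 ± 0.47, adjusted p = 8.55e-05). In MOF cKO skin alone, Tnc stood at 469 and 226 CPM in members against 223 and 67.6 in the others. Tgfbi stood there at 167 and 59.8 against 48.6 and 37.2. The change, not the level, was larger in members for Pdpn (2.66), Thbs2 (2.45), C1qtnf3 (2.86), Cd55 (2.07), Nupr1 (2.06) and Fibin (4.66) too. Of 22 elastic fibre and matricellular genes 8 were called larger in members, and of 27 fibrillar collagen and assembly genes 7, the gate gene Col1a1 among them, with 0 smaller in either list. The 91 calls also include Mmp11, a gene of the rule. Inflammatory genes were called larger for 5 of 26 and interferon response genes for 2 of 25, and for S phase genes there were 0 calls among 32. Cxcl10 stood at 5.53 and 2.35 against 337 and 87.7 CPM in the other fibroblasts and Isg15 at 5.05 and 1.44 against 172 and 95.1, so both cKO libraries lay above both controls there as well, and the difference from members was not called.

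The change had a smaller value in members for Igf1 (-1.84 ± 0.41), Hspb1 (-1.82 ± 0.39), Igfbp4 (-1.39 ± 0.32), Gstm1 (-1.37 ± 0.33), Mdk (-0.82 ± 0.19) and S100a6 (-0.65 ± 0.13). Igf1, the insulin-like growth factor, stood at 58.2 and 19.8 against 6.54 and 13.5 CPM in members and 81.1 and 55.7 against 66.0 and 80.6 in the others. Histones Hist1h2ae (-1.25) and Hist1h2ap (-0.87) were called too, but their control values were far apart, with Hist1h2ap at 158 and 736 CPM in members. Of the 18 genes named by size, Col12a1, Tnc and Tgfbi stayed past the threshold in every alternative run. With DESeq2 22 genes were called, and with the replicate block 160.

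**Figure D5:**
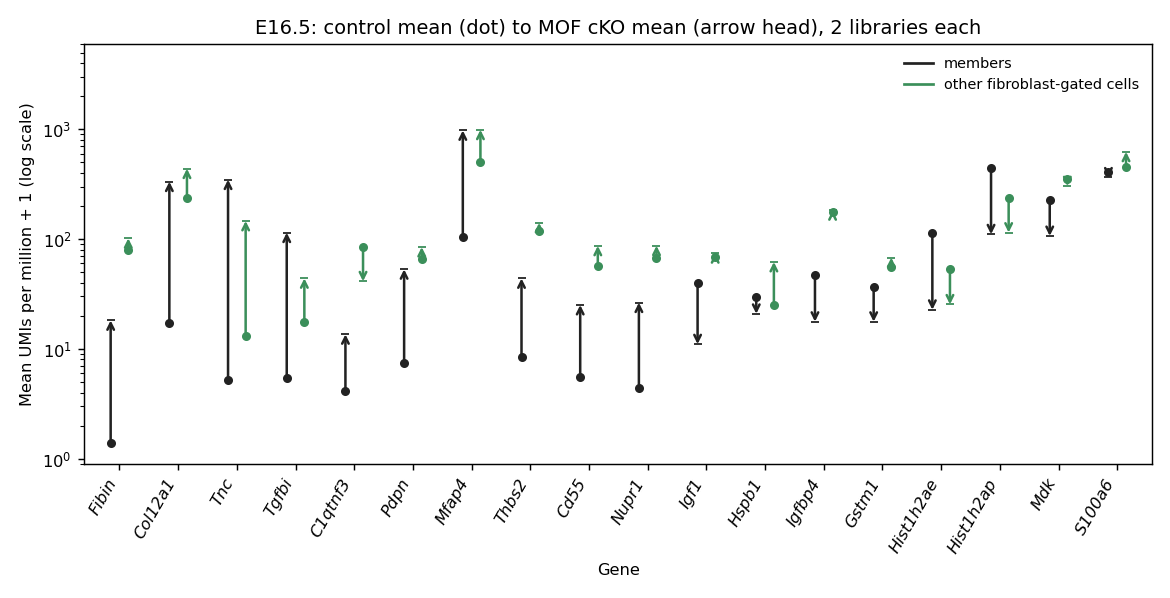
Mean level at E16.5 in control (dot) and MOF cKO (arrow head) libraries, 2 each, in members and in the other fibroblast-gated cells, in CPM plus 1 on a log scale, for the 18 named genes whose change differed between the 2 populations. For Col12a1 and Mfap4 the 2 arrows start far apart and end close together.

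At E15.5 the same test called 81 of 14677 genes (0.552%), 61 larger in members (0.416%) and 20 smaller (0.136%), mostly by less than 1 on the log2 scale. The balance turned with at least 4 markers (7 larger and 17 smaller) and with the gate on thinned cells (22 and 25). Col12a1 was again among them (0.85 ± 0.11, adjusted p = 2.06e-05), with 39.3 and 33.1 against 89.2 and 57.6 CPM in members and 319 and 298 against 357 and 353 in the others. The change was larger in members as well for Nrk (0.87 ± 0.13) and Akap12 (1.52 ± 0.22), both low in members. Immediate early genes were called for 11 of 24, all larger in members, with small differences such as 0.27 ± 0.04 for Egr1. Acta2, smooth muscle actin, had 2.33 and 3.0 CPM in control members and 87.8 and 9.41 in MOF cKO (3.64 ± 0.60). Pericyte markers, Acta2 among them, summed to 52.9 and 44.3 CPM in control members against 153 in MOF cKO replicate 5 and 59.8 in replicate 6, and their part in the Acta2 value was not tested. That value turned to -0.13 with the gate on thinned cells, and that of Akap12 to -0.10. The change had a smaller value in members for Prss23 (-0.72), Adamts5 (-0.51), Tubb2b (-0.36), Dpt (-0.35), Lrrc17 (-0.32), Fbn2 (-0.24) and Itm2a (-0.23). It had a larger value in members for Cxcl1 (0.55), Thbs1 (0.53), Ifitm1 (0.48), Cxcl12 (0.46), Sbno2 (0.63) and Mt1 (0.45). With Stmn2 and Rspo3 both required, Cxcl1 turned to -0.11 and Ifitm1 to -0.19. None of the 17 genes named by size at E15.5 stayed past the threshold in every alternative run, Col12a1 included. Erythroid genes were called for 3 of 5, with summed levels of 18960 to 33630 CPM in MOF cKO members and 20710 to 23650 in control members, and their part in the other values was not tested. Without control replicate 2 there were 7 calls, and with DESeq2 8.

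At E17.5 the members of QPC cKO skin could be compared with 1 control library only, so no test was made and ratios are given with exact Poisson 95% intervals, which cover counting error. Of 4819 genes that reached 100 UMIs in 1 library or the other, 52 were past 2-fold higher (1.08%) and 26 past 2-fold lower (0.54%). Members summed to 1029667 UMIs in the control and 3019134 in QPC cKO, so this minimum asked for a lower level in QPC cKO. Genes high in QPC cKO could enter more easily, so the 2 counts are not to be set against each other. Chemokine genes had some of the lowest ratios. Cxcl2 stood at 202 CPM (176 to 231) in the control and 28.8 (23.1 to 35.5) in QPC cKO, and Ccl2 at 694 (644 to 747) against 130 (117 to 143). Cxcl1 stood at 362 against 112 and the interferon regulatory factor Irf1 at 359 against 123. Of 11 inflammatory genes 4 were past 2-fold lower and 0 higher (median log2 ratio -0.87). Angptl4 (-2.03), Thbs1 (-1.71), Errfi1 (-1.36), Igf2 (-1.35), Plagl1 (-1.34) and Plac8 (-1.33) completed the 10 lowest ratios.

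The highest ratios at E17.5 were those of Pdlim3, a cytoskeletal adaptor, at 24.3 CPM (15.7 to 35.8) against 105 (93.8 to 117), and Tnmd, the tendon gene tenomodulin, at 10.7 (5.33 to 19.1) against 47.4 (39.9 to 55.8). Tendon markers, Tnmd among them, summed to 15.54 and 52.0 CPM, and their part in the Tnmd value was not tested. Msmo1, an enzyme of cholesterol synthesis, stood at 17 against 63. Hoxc10 (2.04), Heyl (1.83), Dpep1 (1.71), Lbh (1.68), Lrrc15 (1.65) and Rora (1.64) were also among the 10 highest. S phase genes had 0 of 23 past 2-fold in either direction (median -0.19), and OXPHOS subunits 0 of 62 (0.13). G2/M genes had 2 of 34 past 2-fold higher and 0 lower (0.52), and immediate early genes 3 of 19 higher and 0 lower (0.32). Uqcrq itself stood at 77.7 CPM in control and 121 in QPC cKO members. Keratinocyte markers summed to 695 CPM in the control members and 378 in QPC cKO.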

How the data were processed

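Single-cell libraries of dissociated mouse back skin were made with 10x Genomics 3' kits. The authors deposited UMI counts per gene and cell barcode, which were not normalised. The submitters' processing notes name Cell Ranger 6.1.2, with 1.3.1 also listed at E16.5, and mm10. Cells were filtered here on genes detected and mitochondrial UMIs as the report states. No doublet caller was run, and an alternative left out cells over the 95th percentile of UMIs.

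Counts of gated cells were summed per library and tested with edgeR 4.0.16 (R 4.3.3, quasi-likelihood, TMM scaling, filterByExpr, Benjamini-Hochberg adjustment over all genes tested, threshold 0.05). Comparisons within a stage used the libraries of that stage only, with groups of 2. DESeq2 1.42.0, with its own size factors, was an alternative. Shares were compared by exact permutation over libraries (scipy 1.17.1). CPM are counts per 1000000 UMIs summed over the gated cells of a library, and E17.5 ratios used a pseudocount of 1 CPM. Genes with controls at 0 are given as bounds against a floor of 3 UMIs over the group. Sums over cells were also tested on simulated counts, where 64.4% of 2-fold changes were recovered for the E15.5 comparison of members (15 of 140 calls false) and 14.1% for E16.5 (5 of 31 false). For the difference between stages 2.53% were recovered (1 of 6 false), and for members against other fibroblasts 63.5% at E15.5 (6 of 131 false) and 30.3% at E16.5 (3 of 62 false).

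Named genes were the 10 largest rises and the 10 largest falls past the threshold, with groups apart and a mean of at least 50 CPM in either group. Where fewer than 5 passed, the 5 of smallest p on each side were used. For members against other fibroblasts they were the 20 largest and 10 smallest ratios, and genes past a threshold were also taken from 45 gene lists. The members and the lists were chosen with earlier results of these data known. The alternatives without Mmp11, with Stmn2 and Rspo3 both required and without shared barcodes were chosen after seeing the data. Genes used by the rule were left out of the named genes but stayed in the fits and in all counts of calls. Results for 2 genes that met these rules are not reported here.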

Additional observations from a re-analysis of the deposited data

Results flagged for a closer look

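The MOF cKO change in members differed between E15.5 and E16.5 for 105 genes by the test of the interaction of stage and genotype. In log2 units, E16.5 minus E15.5, the named genes with a larger value at E16.5 were Tnc (5.67), Lgals3bp (4.03), C2 (3.98), Mt2 (3.96), Col12a1 (3.58), Mfap4 (3.06), Serping1 (2.96), Errfi1 (2.88), H2-D1 (2.79) and Phactr1 (2.54). Those with a smaller value were Dkk1 (-4.36), Ncapd3 (-1.97), Ccne1 (-1.91), Knl1 (-1.84), Rrm2 (-1.80), Hells (-1.76), Asf1b (-1.76), Nxt1 (-1.73), Esco2 (-1.71) and Ska1 (-1.68). Stage, chemistry and gene annotation cannot be told apart in these values.

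Within E15.5, the MOF cKO change differed between members and the other fibroblast-gated cells for 81 genes by the test of the interaction of population and genotype. In log2 units, members minus others, the larger values were Acta2 (3.64), Akap12 (1.52), Nrk (0.87), Col12a1 (0.85), Sbno2 (0.63), Cxcl1 (0.55), Thbs1 (0.53), Ifitm1 (0.48), Cxcl12 (0.46) and Mt1 (0.45). The smaller values were Prss23 (-0.72), Adamts5 (-0.51), Tubb2b (-0.36), Dpt (-0.35), Lrrc17 (-0.32), Fbn2 (-0.24) and Itm2a (-0.23). Under an alternative gate Acta2 turned to -0.13, Akap12 to -0.10, Cxcl1 to -0.11 and Ifitm1 to -0.19, and none of these 17 genes stayed past the threshold in every alternative run.

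Within E16.5 the same test was passed by 91 genes. The larger values in members were Fibin (4.66), Col12a1 (3.54), Tnc (3.20), Tgfbi (3.14), C1qtnf3 (2.86), Pdpn (2.66), Mfap4 (2.49), Thbs2 (2.45), Cd55 (2.07) and Nupr1 (2.06). The smaller values were Igf1 (-1.84), Hspb1 (-1.82), Igfbp4 (-1.39), Gstm1 (-1.37), Hist1h2ae (-1.25), Hist1h2ap (-0.87), Mdk (-0.82) and S100a6 (-0.65). No group held 4 or more libraries of a stage, so single libraries were not screened for distance from the rest.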

How the results depend on the processing

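Counts of called genes moved with the gate, the tool and single libraries. For members at E15.5 the 7 calls became 37 with library size scaling, 57 with DESeq2, 84 without a filter on low counts, 25 with a mitochondrial limit of 5%, 0 with at least 4 markers, 0 with the gate on thinned cells, 16 without cells over the 95th percentile of UMIs, 22 without Mmp11 as a marker, 28 with Stmn2 and Rspo3 both required and 12 without shared barcodes. Leaving out 1 library gave 26 to 223 (26 without control replicate 2, 85 without control replicate 3, 31 without MOF cKO replicate 5 and 223 without MOF cKO replicate 6). For members at E16.5 the 382 calls became 197 with DESeq2, 982 without the filter, 143 with at least 4 markers, 217 without Mmp11 and 191 with Stmn2 and Rspo3 both required, and 47 to 640 when a library was left out (47 and 82 without MOF cKO replicates 1 and 2, 640 without control replicate 1). Library size scaling called 221 higher and 218 lower there in place of 265 and 117. The fit without the filter called 591 and 391, thinned cells 233 and 172, and DESeq2 158 and 39. The difference between stages (105) became 160 with library size scaling (66 higher and 94 lower, in place of 65 and 40), 275 with DESeq2, 243 without the filter, 25 with at least 4 markers, 191 with thinned cells (83 higher and 108 lower), 28 without Mmp11, 50 with Stmn2 and Rspo3 both required, and 0 to 461 when a library was left out (461 without E16.5 control replicate 1, 66 without E16.5 MOF cKO replicate 2, and 0 without the 4 libraries the report names).

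The difference between members and other fibroblasts at E15.5 (81) became 52 with library size scaling (31 higher and 21 lower, in place of 61 and 20), 8 with DESeq2, 145 without the filter, 50 with a mitochondrial limit of 5%, 24 with at least 4 markers (7 higher and 17 lower), 47 with thinned cells (22 higher and 25 lower), 47 with Krt5 and Krt14 under 3 UMIs, 50 without cells over the 95th percentile, 38 without Mmp11, 48 against upper gated cells, 7 against fascia gated cells, and 7 to 127 when a library was left out (7 without control replicate 2, 43 without MOF cKO replicate 5 and 127 without MOF cKO replicate 6). Acta2 turned to -0.13 and Akap12 to -0.10 with thinned cells, and Cxcl1 to -0.11 and Ifitm1 to -0.19 with Stmn2 and Rspo3 both required. At E16.5 (91) it became 22 with DESeq2 (22 higher and 0 lower, in place of 78 and 13), 50 with at least 4 markers, 36 with Krt5 and Krt14 under 3 UMIs, 140 against upper gated and 237 against fascia gated cells, and 55 to 126 when a library was left out (55 without control replicate 2). With the replicate block it became 160, which held all 91, and for members at E16.5 the replicate block gave 344 calls, 308 of them shared. The labels do not say that the E16.5 numbers mark shared embryos or days, and there were only 2 pairs.

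The difference in share turned to 1.25 points at E15.5 over all kept cells (2.17 over both stages in place of 0.72), to -0.993 at E16.5 with Stmn2 and Rspo3 both required and to -0.229 without MOF cKO replicate 1, and over both stages to -0.136 without Mmp11, -0.534 with Stmn2 and Rspo3 both required and -0.671 without E16.5 MOF cKO replicate 1. Leaving out 1 library gave -1.55 to -0.679 points at E15.5, -0.229 to 5.35 at E16.5 and -0.671 to 2.12 over both. At E17.5 the genes past 2-fold higher (52) became 213 with Krt5 and Krt14 under 3 UMIs, 23 with a pseudocount of 10 CPM and 204 at a minimum of 30 UMIs, and those lower (26) became 66, 10 without Mmp11, 15 with Stmn2 and Rspo3 both required and 77 at 30 UMIs. The cause of these moves was not tested. Where leaving out a library left 1 sample in a group, that sample was assumed to vary like the others. The UMIs summed over members were 584070 to 1315272 per library at E16.5 and 4729639 to 7370010 at E15.5.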
